A study of Mus musculus with 15 samples.

Results

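*Tmtc1, Robo1, Scn11a* and *Parp8* are 4 of the 41388 mouse genes counted in 15 RNA sequencing libraries of A20 cells, a B-cell lymphoma line from BALB/c mice. They were picked by name from earlier results of the same libraries, as genes with more reads in several Foxp1-edited clones than in the parental line. The differences between clone and parental libraries therefore chose these genes, and they are given here as a description with no test. All 4 were among the 13904 genes that passed a filter on low counts. *Robo1* and *Scn11a* held at most 7 counts in any parental library and passed it only through the clones.

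The parental line was labelled wild type, and the 4 clones carried CRISPR mutations of the transcription factor gene *Foxp1* in exon 6 (E6.1 and E6.2) or exon 7 (E7.1 and E7.2). Each of the 5 lines was sequenced in 3 libraries taken from separate passages. To make the clones, cells had been electroporated with the guide plasmid, sorted for GFP and grown out by single cell dilution. The 3 libraries of a clone thus repeat 1 clone and not 1 kind of edit. No clone made with a control guide was analysed here. An effect of the *Foxp1* mutation and a difference between a line grown from 1 cell and the uncloned line cannot be told apart.

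Total counts ranged from 26328054 to 39181530 per library, and 3 counts, the smallest number taken as detectable, corresponded to 0.0751 to 0.118 CPM (counts per 1000000 counts, with library sizes normalized by the trimmed mean of M values, TMM). These floors, and the intervals of count ratios below, cover counting error only. In parental cells *Foxp1* itself stood at 138 ± 32.7 CPM (SD, n = 3). It stood at 104 ± 4.60 and 106 ± 2.38 in the exon 6 clones E6.1 and E6.2, and 56.8 ± 13.03 and 43.0 ± 8.19 in the exon 7 clones E7.1 and E7.2. A gene was called where the p of edgeR's quasi-likelihood test, adjusted over all 13904 genes, was under 0.05. By this measure *Foxp1* was lower in E7.1 (adjusted p = 0.00688) and E7.2 (adjusted p = 0.00116), and it did not pass in E6.1 (adjusted p = 0.765) or E6.2 (adjusted p = 0.417). Reads anywhere on the gene were counted, so these levels do not show the edited exon. They are RNA levels, and the study followed the protein by Western blotting. It reported stable loss of Foxp1 protein in the replicates used for sequencing, and a frameshift with a premature stop codon in each clone. In its wider panel, most clones lost the full-length protein. Exon 6 targeting also depleted the larger short form, and exon 7 targeting all forms present in A20 cells. All 8 B-lineage markers examined were expressed, with a summed level of 1042 to 1778 CPM. Replicate 3 of E6.2 and replicate 3 of E7.2 stood apart from the rest in TMM factor and in their deviations from the line means. Their TMM factors were 0.906 and 0.826 against 0.966 to 1.05 in the other 13 libraries, and their deviations from the line means had the highest correlation (r = 0.426) of the 90 pairs formed between libraries of different lines. Values without one or both of these replicate 3 libraries are given beside the results they moved most. E6.2 replicate 1, among the other 13, was unusual in other ways and was kept in those fits. Its 10 most counted genes held 20.4% of its counts, against 9.09% in E6.2 replicate 3 and 14.7% in E7.2 replicate 3. It also had the lowest total count and the most genes detected (19799).

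The 4 genes belong to different families. TMTC1 is a membrane protein of the endoplasmic reticulum, of a family that attaches mannose to cadherins and protocadherins. ROBO1 is a receptor for the secreted SLIT proteins, best known for steering growing axons, and also described in cell migration outside the nervous system. SCN11A is the pore-forming subunit of a voltage-gated sodium channel known from pain-sensing neurons. PARP8 is a member of the ADP-ribosyltransferase family, whose enzymes attach ADP-ribose to proteins, most of them in single units. FOXP1 is a forkhead factor that binds DNA and represses or activates its target genes.

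The genes lie on separate chromosomes of GRCm38, in the coordinates of the count tables. *Tmtc1* (ENSMUSG00000030306) occupies chr6:148232430-148444389 on the minus strand, *Robo1* (ENSMUSG00000022883) chr16:72663149-73046095 on the plus strand, *Scn11a* (ENSMUSG00000034115) chr9:119753763-119825456 on the minus strand and *Parp8* (ENSMUSG00000021725) chr13:116854824-117025516 on the minus strand. *Tmtc1* and *Foxp1* share chromosome 6. All 4 are long genes, with spans of 211960 bases for *Tmtc1*, 382947 for *Robo1*, 71694 for *Scn11a* and 170693 for *Parp8* against a median of 16865.5 over all genes tested. The spans stood above those of 97.5%, 99.2%, 86.1% and 96.4% of tested genes, in the same order. Each was annotated with 22 to 29 exon blocks, against a median of 8. Exonic length set them less apart, since *Parp8*, with 3088 bases, lay below the median of 3210.5.

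The promoters are shown because the 4 genes were chosen for being higher in lines with a mutated forkhead factor, and the sequences let their start regions be compared. Each is the 250 bases before the gene's start in RefSeq (GRCm38.p6), written 5′ to 3′ on the gene's own strand, with CG dinucleotides in capitals.
Tmtc1 promoter, chr6:148444353-148444602, minus strand: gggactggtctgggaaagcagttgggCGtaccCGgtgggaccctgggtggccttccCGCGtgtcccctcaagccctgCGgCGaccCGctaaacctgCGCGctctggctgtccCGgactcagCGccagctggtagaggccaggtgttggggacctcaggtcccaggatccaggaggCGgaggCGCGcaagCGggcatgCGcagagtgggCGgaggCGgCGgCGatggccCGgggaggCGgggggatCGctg
Robo1 promoter, chr16:72662899-72663148, plus strand: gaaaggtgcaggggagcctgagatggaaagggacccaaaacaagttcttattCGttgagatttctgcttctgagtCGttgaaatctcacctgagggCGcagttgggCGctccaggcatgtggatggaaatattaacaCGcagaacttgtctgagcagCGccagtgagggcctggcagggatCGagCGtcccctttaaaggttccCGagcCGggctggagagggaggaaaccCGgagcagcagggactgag
Scn11a promoter, chr9:119825457-119825706, minus strand: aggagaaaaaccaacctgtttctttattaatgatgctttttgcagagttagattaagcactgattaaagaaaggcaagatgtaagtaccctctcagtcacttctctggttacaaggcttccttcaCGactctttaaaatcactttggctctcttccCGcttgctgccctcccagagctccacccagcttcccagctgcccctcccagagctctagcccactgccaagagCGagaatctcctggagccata
Parp8 promoter, chr13:117025532-117025781, minus strand: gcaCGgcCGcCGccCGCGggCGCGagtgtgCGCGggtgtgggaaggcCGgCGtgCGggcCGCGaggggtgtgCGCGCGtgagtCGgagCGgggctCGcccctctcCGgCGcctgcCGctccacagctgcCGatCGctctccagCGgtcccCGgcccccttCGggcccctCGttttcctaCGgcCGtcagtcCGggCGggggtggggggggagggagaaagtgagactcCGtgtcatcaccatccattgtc
The *Parp8* and *Tmtc1* windows are dense in CG, with 34 and 23 CG dinucleotides and a GC content of 74.8% and 72%. *Robo1* held 11 CG dinucleotides at 56% GC, and *Scn11a* held 3 at 48% GC, against medians of 6 and 52.4% over the 32851 windows of the same length. The forkhead core TGTTTAC was found on either strand in 3.17% of all windows, and in 0 of these 4. The looser form TGTTTNC, which includes the first, was in 17.8% of windows, and TGTTTAT, searched only after the sequences had been seen, in 4.16%. Neither was in any of the 4 windows. This says only that these letters are not in this stretch.

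In the levels, the 4 genes differed widely. Per length, as CPM per kilobase of exon (RPKM), *Parp8* was an abundant transcript already in parental cells, at 33.6 ± 7.13 RPKM, above 86.0% of tested genes. *Tmtc1* stood at 0.836 ± 0.165 RPKM in parental cells, above 21.1% of tested genes. *Scn11a* (0.0224 ± 0.0110 RPKM) and *Robo1* (0.00364 ± 0.00354 RPKM) were at the bottom of the tested range. In the highest clone, E7.2, they still stood at only 0.389 ± 0.177 and 0.384 ± 0.224 RPKM, below parental *Tmtc1*. These are bulk libraries, in which a few cells with much RNA of a gene and many cells with little cannot be told apart.

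**Figure D1:**
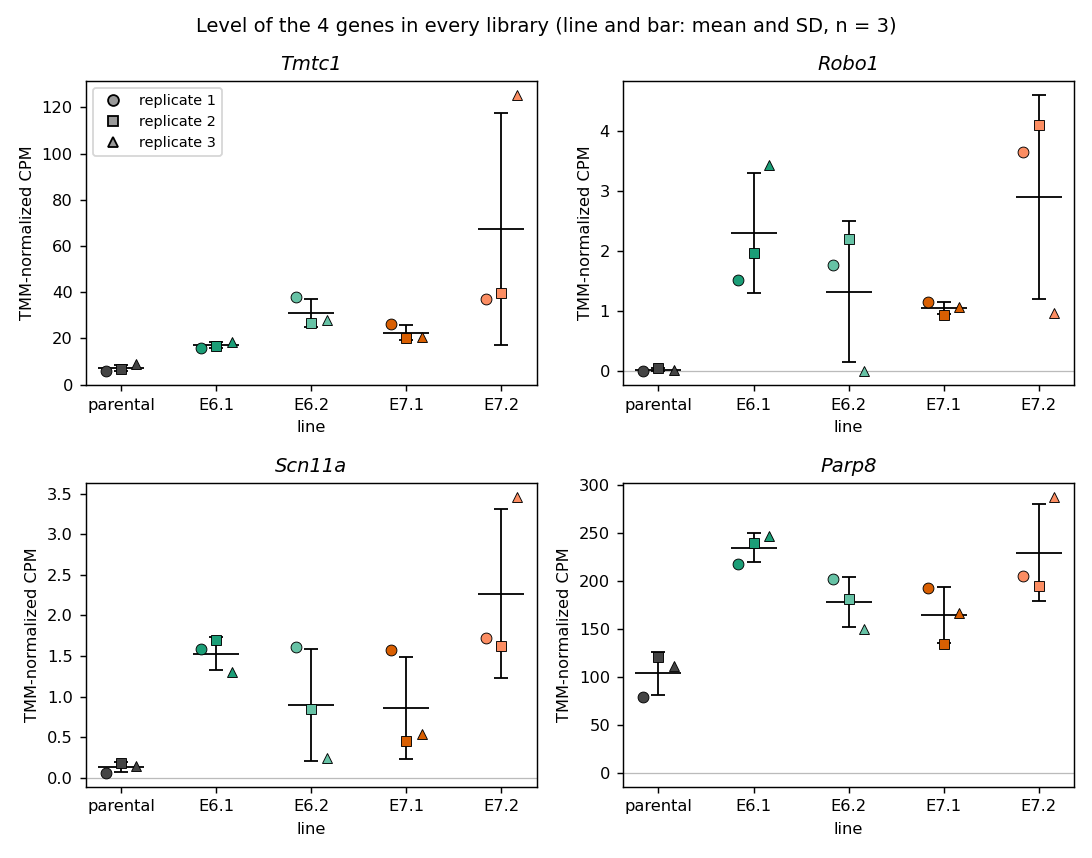
Normalized CPM (vertical axis, a separate linear scale for each gene) of *Tmtc1, Robo1, Scn11a* and *Parp8* in the 3 libraries of each of the 5 lines (horizontal axis), with symbols for the replicate number and a line and bar for the mean and SD. All clone libraries lie above all parental libraries except for *Robo1* in replicate 3 of E6.2, which is at 0, and *Tmtc1* in replicate 3 of E7.2 stands at 125 CPM, far above the other 14 libraries.

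*Tmtc1* was counted 198, 254 and 300 times in parental replicates 1, 2 and 3. E6.1 held 501, 508 and 740 counts and E6.2 held 958, 888 and 931. The lowest of these 6 clone libraries was thus above the highest parental library. E7.1 held 979, 794 and 695 counts, and E7.2 held 1408, 1487 and 3909. Replicate 3 of E7.2 alone carried more *Tmtc1* reads than any other library by a wide margin, at 3.26 times the mean CPM of the other 2 E7.2 libraries. Normalized, *Tmtc1* stood at 7.17 ± 1.41 CPM in parental cells, 17.0 ± 1.35 in E6.1, 22.4 ± 3.31 in E7.1, 30.9 ± 5.97 in E6.2 and 67.4 ± 50.2 in E7.2 (SD, n = 3 each). Taken in that order, the ranges of neighbouring lines did not overlap, except for E6.2 and E7.2. Without replicate 3, the mean of E7.2 was 38.4 CPM, still the highest. The fitted log2 fold changes against parental cells followed the same order, at 1.25 (SE 0.37) in E6.1, 1.64 (SE 0.37) in E7.1, 2.10 (SE 0.38) in E6.2 and 3.23 (SE 0.39) in E7.2. The last became 2.46 (SE 0.19) without E7.2 replicate 3. That library also had the highest share of mitochondrial counts, 10.4% against 0.848% to 7.28% in the 13 libraries that did not stand apart, and the part of this in the *Tmtc1* level was not tested.

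*Robo1* was close to silent in parental cells, with 0, 2 and 1 counts in replicates 1, 2 and 3. All 3 were below the floor of 3 counts. E6.1 held 48, 60 and 137 counts, E7.1 held 43, 37 and 36, and E7.2 held 138, 154 and 30. In E6.2 the receptor was counted 45 and 73 times in replicates 1 and 2 and 0 times in replicate 3, a library with a total of 36707548 counts. Of the 12 clone libraries, 11 thus lay above every parental library, and the exception was one of the 2 libraries that stood apart. A count of 0 there allows a level of up to 0.0902 CPM, well under the 1.77 and 2.21 CPM of the other E6.2 libraries. The other library that stood apart, E7.2 replicate 3, held 0.962 CPM against a mean of 3.88 in replicates 1 and 2. Mean levels were 0.0275 ± 0.0267 CPM in parental cells, 1.06 ± 0.104 in E7.1, 1.33 ± 1.17 in E6.2, 2.30 ± 0.997 in E6.1 and 2.90 ± 1.70 in E7.2. The ranges of parental cells and E7.1 did not overlap, whereas each pair of neighbours among the clones did. With only 3 parental counts in all, a ratio of counts per normalized library size has a wide counting interval. It was 36.9 (95% interval 12.3 to 181) in E7.1, 45.0 (15.02 to 221) in E6.2, 83.9 (28.4 to 410) in E6.1 and 106 (35.8 to 515) in E7.2. These intervals pool the reads of a line and leave out the spread between its libraries. They are no test of the difference that chose the gene. Without replicate 3 the ratio was 70.5 in E6.2 and 135 in E7.2.

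*Scn11a* had 2, 7 and 5 counts in parental replicates 1, 2 and 3. The E6.1 libraries were even, at 50, 52 and 52 counts. E6.2 was spread out, with 41, 28 and 8 counts, and so was E7.1, with 59, 18 and 18. E7.2 held 65, 61 and 108 counts. All 12 clone libraries were above the highest parental library in CPM, although E6.2 replicate 3, at 0.241 CPM, came close to the parental maximum of 0.187 CPM. Mean levels were 0.131 ± 0.0645 CPM in parental cells, 0.859 ± 0.626 in E7.1, 0.900 ± 0.688 in E6.2, 1.53 ± 0.206 in E6.1 and 2.27 ± 1.04 in E7.2. In mean CPM this is the same order of lines as for *Robo1*. The means of E7.1 and E6.2 were close, and these lines changed places in the ratio of counts below. Here too the ranges of neighbouring clones overlapped. The ratio of counts to parental cells was 6.29 in E6.2 (95% counting interval 3.53 to 12.04), 6.47 in E7.1 (3.67 to 12.3), 11.3 in E6.1 (6.53 to 21.2) and 16.5 in E7.2 (9.61 to 30.6). Without replicate 3 it was 8.84 in E6.2 and 12.5 in E7.2. As for *Robo1*, the intervals leave out the spread between libraries and are no test. The fitted log2 fold changes were 2.67 (SE 0.71) for E7.1, 2.72 (SE 0.72) for E6.2, 3.49 (SE 0.71) for E6.1 and 4.06 (SE 0.72) for E7.2. The E7.1 value was 1.88 without E7.1 replicate 1, and the E6.2 value ranged from 2.00 without E6.2 replicate 1 to 3.20 without E6.2 replicate 3.

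As *Robo1* and *Scn11a* are best known from neurons, 8 neuronal markers were read in the same libraries. *Snap25, Stmn2* and *Nefl* had 0 counts in all 15 libraries, and *Map2* was the only marker above 1 CPM in any. The summed level of the 8 was 2.68 to 3.51 CPM in parental cells, 4.76 to 7.13 in E6.1, 2.25 to 2.99 in E7.1, 0.391 to 1.73 in E6.2 and 0.353 to 2.69 in E7.2. All libraries of E6.1, which had the second highest means of *Robo1* and *Scn11a*, were above the parental maximum of these markers, and all libraries of the other clones, E7.2 with the highest means among them, were below it. The part of these markers in the levels of both genes was not tested. The T cell, myeloid, endothelial and fibroblast markers summed to at most 2.71, 8.74, 0.850 and 0.674 CPM in any library.

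*Parp8* was the most abundant of the 4 and had the smallest fitted fold change in each clone. It was counted 2607, 4513 and 3847 times in parental replicates 1, 2 and 3. E6.1 held 6879, 7320 and 9885 counts and E6.2 held 5138, 6004 and 4996. Every one of these libraries exceeded the parental libraries. E7.1 held 7199, 5271 and 5592 counts, and E7.2 held 7781, 7324 and 8982. The lowest clone library in CPM, E7.1 replicate 2 at 134.6 CPM, was above the highest parental library, at 120.5 CPM. Mean levels were 104 ± 22.02 CPM in parental cells, 165 ± 29.1 in E7.1, 178 ± 26.2 in E6.2, 230 ± 50.9 in E7.2 and 235 ± 15.1 in E6.1. The ranges of neighbouring clones in this order overlapped. The log2 fold changes were 0.67 in E7.1, 0.78 in E6.2, 1.15 in E7.2 and 1.18 in E6.1, each with an SE of 0.20. Without the replicate 3 libraries that stood apart they were 0.88 in E6.2 and 0.98 in E7.2.

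In 3 of the 4 genes, *Tmtc1, Scn11a* and *Parp8*, all 12 clone libraries lay above all 3 parental libraries. Of the 13904 genes tested, 79 (0.568%) did so, and within single clones the share of genes with every library above the parental ones was 16.4% for E7.1, 11.3% for E6.1, 10.8% for E7.2 and 6.13% for E6.2. The comparison that chose the genes is the one counted here, so nothing is read from their number.

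**Figure D2:**
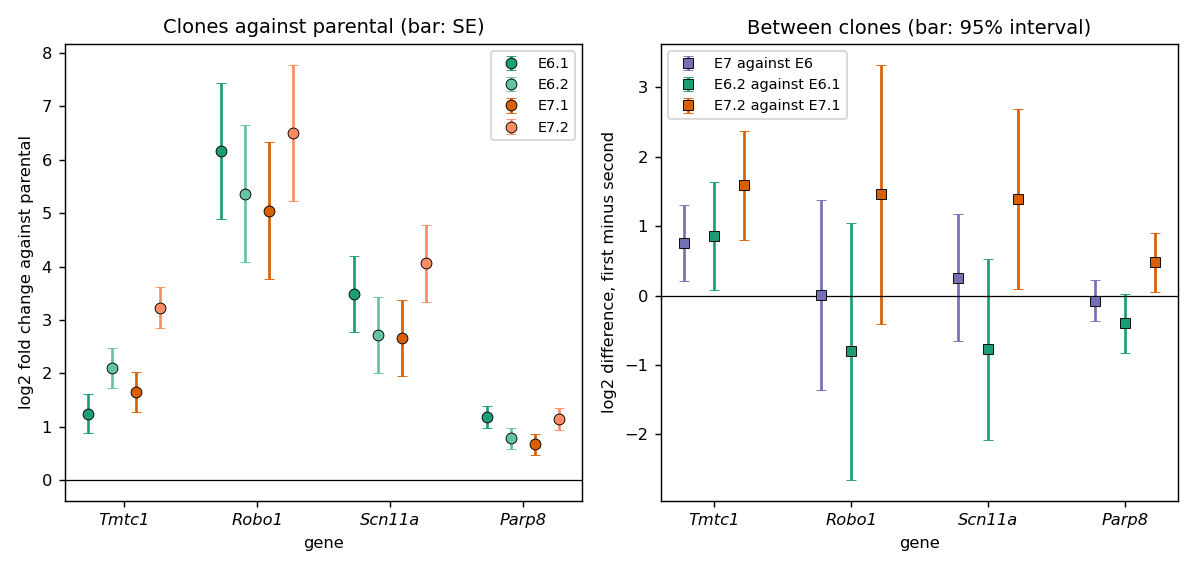
Left, fitted log2 fold change of each clone against parental cells with its SE, for each of the 4 genes along the horizontal axis. Right, log2 difference between clones (first named minus second) with its 95% interval. All values on the left are above 0, while on the right 7 of the 12 intervals include 0.

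Differences among the clones were not what chose the genes, although the clone libraries took part in the choice. They were tested by quasi-likelihood in edgeR, with p values adjusted over all genes after Benjamini and Hochberg, for the mean of the E7 clones minus that of the E6 clones, for E6.2 minus E6.1 and for E7.2 minus E7.1. The p values and intervals rest on the spread between libraries of a line. For E7 against E6 they do not cover the spread between clones of the same exon. None of the 12 tests of the 4 genes passed an adjusted p of 0.05. Of all genes tested, 12.1% passed between E7 and E6 clones, 1.24% between E6.2 and E6.1 and 0.59% between E7.2 and E7.1. At an unadjusted p under 0.05, 1 of the 4 genes passed between E7 and E6 clones (30.3% of all genes), 1 between E6.2 and E6.1 (12.9%) and 3 between E7.2 and E7.1 (13.3%). DESeq2's Wald test called *Tmtc1* between E7 and E6 clones, where it called 19.4% of all genes, and between E7.2 and E7.1, where it called 2.07%. It called 3.23% between E6.2 and E6.1 and none of the 4 genes.

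*Tmtc1* had the lowest adjusted p of the 4 genes in each of these comparisons. It was higher by a log2 of 0.76 in E7 than in E6 clones (95% interval 0.22 to 1.31, adjusted p = 0.0652), by 0.86 in E6.2 than in E6.1 (0.08 to 1.64, adjusted p = 0.335) and by 1.59 in E7.2 than in E7.1 (0.80 to 2.37, adjusted p = 0.0825). E7.2 replicate 3 weighed on all 3 tests. Without it the differences were 0.38 (SE 0.13 in place of 0.26, adjusted p = 0.0558), 0.85 (SE 0.17 in place of 0.36, adjusted p = 0.0202) and 0.79 (SE 0.19 in place of 0.37, adjusted p = 0.146), so the difference between the 2 exon 6 clones passed the threshold while the one between the exon 7 clones was smaller.

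The other genes gave wider intervals or smaller differences. *Parp8* differed by a log2 of -0.07 between E7 and E6 clones (-0.37 to 0.23, adjusted p = 0.765), by -0.40 between E6.2 and E6.1 (-0.82 to 0.02, adjusted p = 0.414) and by 0.48 between E7.2 and E7.1 (0.06 to 0.90, adjusted p = 0.333). The last was 0.30 (adjusted p = 0.877) without E7.2 replicate 3, and that between E6.2 and E6.1 was -0.27 (adjusted p = 0.546) without E6.2 replicate 3. Its interval between exons was the narrowest of the 4 genes. *Scn11a* differed by 0.26 between E7 and E6 clones (-0.65 to 1.17, adjusted p = 0.721), by -0.78 between E6.2 and E6.1 (-2.08 to 0.52, adjusted p = 0.608) and by 1.39 between E7.2 and E7.1 (0.10 to 2.69, adjusted p = 0.348). Leaving out E7.2 replicate 3 took the last to 0.98 (adjusted p = 0.884), and leaving out E6.2 replicate 3 took the difference within exon 6 to -0.29 (adjusted p = 0.827). *Robo1* differed by 0.01 between E7 and E6 clones (-1.36 to 1.37, adjusted p = 0.998), by -0.80 between E6.2 and E6.1 (-2.66 to 1.05, adjusted p = 0.724) and by 1.46 between E7.2 and E7.1 (-0.41 to 3.33, adjusted p = 0.472). Without both libraries that stood apart, the *Robo1* difference between E7.2 and E7.1 was 1.88 (SE 0.37, adjusted p = 0.0347) and passed the threshold, as 0.763% of all genes then did. That between E6.2 and E6.1 was -0.22 (SE 0.37, adjusted p = 0.760), where 3.39% of all genes passed. Leaving out E7.2 replicate 3 alone gave a *Robo1* difference of 1.88 between E7.2 and E7.1 (SE 0.88, adjusted p = 0.784). Leaving out E6.2 replicate 3 alone gave 1.47 (SE 0.49, adjusted p = 0.167), and neither passed. *Foxp1*, by contrast, was lower in E7 than in E6 clones by a log2 of -1.09 (-1.39 to -0.78, adjusted p = 0.000609).

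The levels of *Scn11a* and *Parp8* followed each other closely across libraries. Over the 15 libraries their log2 CPM had a Pearson r of 0.951, and each was the gene most like the other among 13903. This r is a description, since both genes were chosen for the same difference from parental cells and the points share lines and depth. Among the 12 clone libraries alone r was 0.873, with *Parp8* the 4th closest gene to *Scn11a* and *Scn11a* the 3rd closest to *Parp8*. When each library was taken relative to the mean of its own line, r was 0.826, and it was 0.804 without the 2 libraries that stood apart. In those last deviations 188 genes were closer to *Scn11a* than *Parp8* was, and 202 were closer to *Parp8* than *Scn11a* was.

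**Figure D3:**
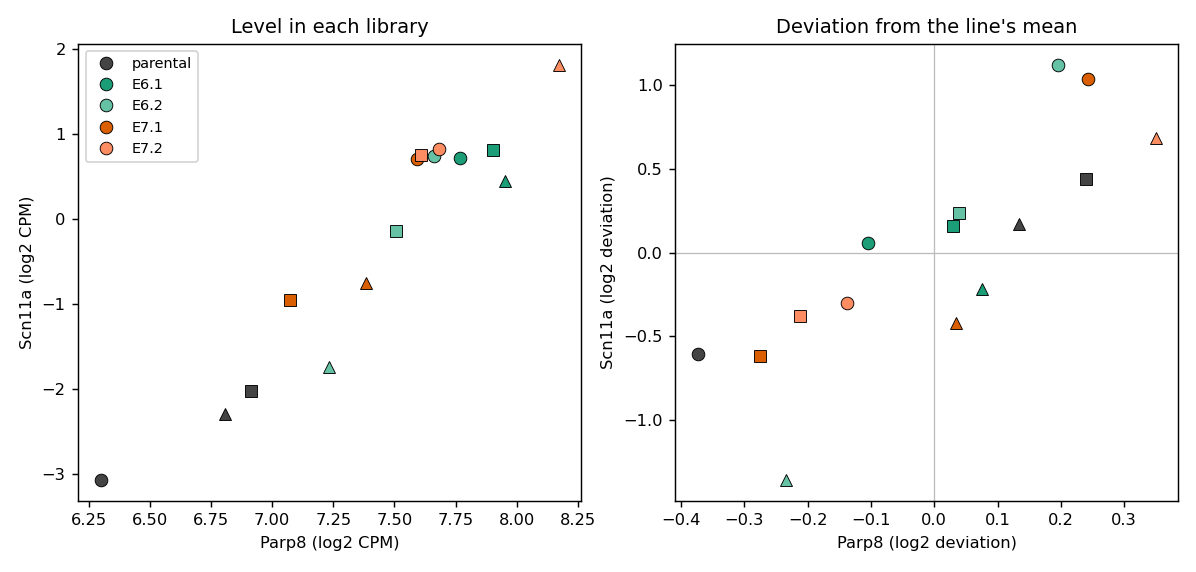
*Scn11a* against *Parp8* in the 15 libraries, as log2 CPM (left, r = 0.951) and as the log2 deviation of each library from the mean of its line (right, r = 0.826), with colours for the lines and symbols for replicates 1 (circle), 2 (square) and 3 (triangle). The parental libraries lie at the lower left and E7.2 replicate 3 at the upper right of the left panel, and E6.2 replicate 3 has the lowest *Scn11a* deviation in the right panel.

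The other pairs were less alike. Over 15 libraries *Robo1* had an r of 0.861 with *Scn11a* and 0.787 with *Parp8*. Within lines these were 0.526 and 0.259, and without the 2 libraries 0.211 and 0.642, so their order turned with those libraries. *Tmtc1* reached r = 0.782 with *Scn11a*, 0.752 with *Parp8* and 0.561 with *Robo1*. In the deviations within lines they were 0.561, 0.728 and -0.191 with all libraries, and 0.703, 0.674 and 0.332 without the 2. Outside the 4 genes, the closest to *Tmtc1* over 15 libraries were *Rasgrp2*, an exchange factor for Rap GTPases (r = 0.917), *Serpinf1*, a secreted serpin (r = 0.906), and ENSMUSG00000074056 (r = 0.862). For *Robo1* they were *Scn11a, Preb* (r = 0.829) and the zinc finger gene *Zfp27* (r = 0.827). For *Scn11a* the third was *Ppp4r1*, a subunit of protein phosphatase 4 (r = 0.854), after *Parp8* and *Robo1*. *Parp8* was followed, after *Scn11a*, by the nucleolar *Surf6* (r = 0.874) and *Arfgap1*, which acts on ARF GTPases at the Golgi (r = 0.865). Each of these was chosen as the highest of 13903 values.

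The edgeR test called 0 of the 5 tested nearest relatives of the 4 genes in any clone against parental cells, DESeq2's Wald test also called 0, and at most 1 in a clone had an unadjusted p under 0.05. *Tmtc3* and *Tmtc4* were expressed in all lines and passed the test in 0 of 4 clones against parental cells, and *Tmtc2* had at most 3 counts in any library. *Tmtc3*, at 61.9 ± 9.89 CPM in parental cells and 37.1 ± 6.47 in E7.2, had its lowest mean in the clone where *Tmtc1* had its highest. The other Robo receptors were near or below the floor, with at most 4 counts of *Robo2* and 2 of *Robo3* and *Robo4* in any library. Their ligands were scarce too. *Slit2* and *Slit3* had at most 2 and 3 counts, and *Slit1* had 3 to 30. Among sodium channel genes like *Scn11a*, *Scn10a* had 0 counts and *Scn9a* at most 4 in any library. Among ADP-ribosyltransferases, *Parp6* (26.1 CPM in parental cells), *Parp16* (1.60 CPM) and *Tiparp* (129 CPM) passed the test in 0 of 4 clones.

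The wider pathways were read in lists that leave out the 4 genes. In the list of TMTC proteins and O-mannosylation, 0 of 19 tested genes passed in any clone against parental cells, with list medians of -0.08 to -0.03 on the log2 scale over the 4 clones. At an unadjusted p under 0.05 these were 6 in E7.2, 5 in E7.1 and 1 in each exon 6 clone. Over all genes these shares were 13.3% in E7.2, 20% in E7.1, 13.1% in E6.2 and 6.71% in E6.1. Of the list of sodium channels and the proteins that bind or regulate them, 8 genes were tested, with *Scn4a* the only channel gene among them. Of these 8, 0 passed (1 to 3 in a clone at an unadjusted p under 0.05, medians -0.32 to -0.14), and 0 of 25 ADP-ribosylation genes did (0 to 4 unadjusted, medians -0.18 to 0.01). In E7.1, DESeq2's Wald test called 4 genes of O-mannosylation, 2 of ADP-ribosylation and, from the sodium channel list, *Fgf13*, a growth factor homologous factor that binds sodium channels, as lower. It also called *Fgf13* lower in E6.2 and 1 O-mannosylation gene, *Pomgnt1*, higher in E7.2. Over all genes with an adjusted p, the Wald test called 8.87% in E7.1, 2.87% in E6.2, 1.83% in E7.2 and 1.12% in E6.1. Of 24 tested genes in Slit and Robo signalling, 1 fell in E6.1 and 1 fell in E7.1, while 0 passed in E6.2 (5 unadjusted, 2 by the Wald test) and E7.2 (3 unadjusted, 0 by the Wald test). The medians were -0.11 to 0.06. The called genes were *Clasp2*, a microtubule-binding protein that acts downstream of SLIT (log2 fold change -1.08, SE 0.12, adjusted p = 0.000487), and *Sos2*, a Ras exchange factor (-0.69, SE 0.15, adjusted p = 0.0445). *Clasp2* stood at 162 ± 18.2 CPM in parental cells and 76.7 ± 3.44 in E6.1, and *Sos2* at 127 ± 18.9 in parental cells and 78.5 ± 14.9 in E7.1. Leaving out each library in turn, *Clasp2* was called in 15 of 15 fits and *Sos2* in 4 (adjusted p 0.0141 to 0.236). Over all genes tested 1.22% were called in E7.1, 1.17% in E6.2, 0.324% in E6.1 and 0.295% in E7.2, with medians of -0.02 to 0.06. Without the 2 libraries that stood apart, the 4 lists of 76 genes held 15 called genes in E7.1 (15.2% of all genes called), 2 in E6.2 (2.26%), 2 in E6.1 (0.924%) and 1 in E7.2 (1.53%).

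More list genes differed between the exon 7 and exon 6 clones, where 12.1% of all genes passed. These tests do not cover the spread between clones of the same exon. Of the O-mannosylation genes 6 of 19 passed, with 3 higher in E7 (*Pomgnt1, Dag1* and *Sdf2l1*) and 3 lower, *Dpm1* among them. In Slit and Robo signalling 6 of 24 passed, with *Enah, Clasp2* and *Sdc1* higher and *Sos1, Sos2* and *Cxcr4* lower. *Nedd4l*, a ubiquitin ligase that acts on sodium channels, was the 1 of 8 genes of the sodium channel list that passed, with a log2 difference of 1.35 (SE 0.26, adjusted p = 0.00826). Of the ADP-ribosylation genes 4 of 25 passed, with *Parp1* higher and *Parp11, Tnks* and *Aplf* lower. Without both libraries that stood apart, 33.1% of all genes passed, and the lists held 7 of 19, 9 of 24, 1 of 8 and 8 of 25, in the same order. All but *Sos2* and *Clasp2* are named because their counts were small and after their values had been seen. Between clones of the same exon only *Clasp2*, higher in E6.2 than in E6.1, and *Ank3*, lower in E7.2 than in E7.1 by a log2 of -3.56 (SE 0.70, adjusted p = 0.0348), passed among the list genes. *Ank3* was scarce, with 1 to 24 counts in a library. Its mean was 0.591 CPM in E7.1 and 0.0460 CPM in E7.2, the latter under the floor of 3 counts. Without E7.2 replicate 3 the *Ank3* difference was -3.38 (SE 0.85, adjusted p = 0.184) and no longer passed. In 3 of the 4 lists genes passed in both directions between exons, and the own differences of *Tmtc1, Robo1, Scn11a* and *Parp8* between E7 and E6 clones did not pass.

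The genes around the 4 loci were examined since position had no part in the choice. Within 1 Mb of their ends there were 19 tested genes around *Tmtc1*, 18 around *Scn11a*, 4 around *Parp8* and 0 around *Robo1*. None of these 41 genes passed the edgeR test in any clone against parental cells, whereas DESeq2's Wald test called *3010003L21Rik* in E6.2 and *Amn1* in E7.1. The edgeR test called 0.295% to 1.22% of all genes in these comparisons. At an unadjusted p under 0.05 there were 3 of 41 in E6.1, 5 in E7.1, 1 in E6.2 and 2 in E7.2, against 6.71%, 20%, 13.1% and 13.3% of all genes. Their median log2 fold changes were -0.11 to 0.11 around *Tmtc1*, 0.07 to 0.11 around *Scn11a* and -0.01 to 0.30 around *Parp8*. Without both libraries that stood apart, *Bicd1* near *Tmtc1* was called lower in every clone but E6.2, and *Dennd5b, Amn1, Gm10157* and *Xylb* were called in E7.1, where 15.2% of all genes were called. The single values in all libraries reached 1.79 in E6.2 near *Tmtc1* and 1.93 in E6.2 near *Scn11a*.

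**Figure D4:**
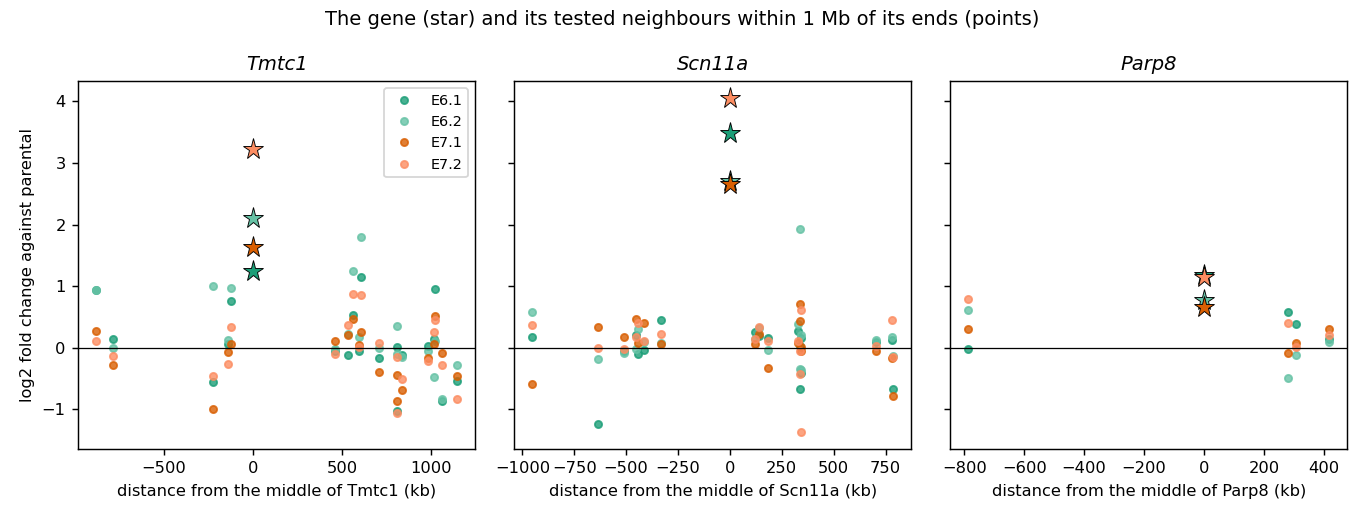
Log2 fold change against parental cells (vertical axis) of *Tmtc1, Scn11a* and *Parp8* (stars at 0) and of the tested genes within 1 Mb of their ends (points), by the distance between gene middles in kb (horizontal axis), coloured by clone. The stars stand at 1.25 to 3.23 for *Tmtc1*, 2.67 to 4.06 for *Scn11a* and 0.67 to 1.18 for *Parp8*, and most neighbours scatter around 0, with 1 of 76 points near *Tmtc1* (*3010003L21Rik* in E6.2) and 1 of 16 near *Parp8* (*Rpl34-ps2* in E7.2) above the lowest star of that gene and 0 of 72 near *Scn11a*.

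The closest tested neighbours were *Gm17216* and *Ipo8* for *Tmtc1*, *Exog* and *Wdr48* for *Scn11a*, and *Rpl34-ps2* and *Gm17509* for *Parp8*. *Wdr48*, whose near end lies 69.4 kb from *Scn11a*, had log2 fold changes of 0.06 to 0.25 (SE 0.11 in each clone). *Ipo8*, a nuclear import receptor at 326 kb from *Tmtc1*, had -0.11 to 0.10 (SE 0.20 in each). *Gm17216*, at 17.9 kb on the other side, was scarce, at 0.495 ± 0.230 CPM in parental cells, and had values of 0.06 to 0.98 (SE 0.61 to 0.62). *Robo1* lies in a stretch with few expressed genes, its closest tested neighbours being *Rbm11* at 2547 kb and *Chmp2b* at 7100 kb, and neither passed in any clone. *Rbm11* had its lowest value in E7.1, a log2 fold change of -1.83 (SE 0.42, adjusted p = 0.0519). *Tmtc1* shares bases with *Gm15763* and *Rps4l*, which held 94 counts in all 15 libraries together against 14550 for *Tmtc1*, and 0 annotated genes overlap the other 3.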

How the data were processed

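RNA from 15 A20 libraries (5 lines, 3 passages each) was sequenced by the study on a HiSeq4000 instrument. The deposited files hold raw counts of read pairs per gene, which the authors made with HISAT, SAMtools and featureCounts 1.5.0 on a GRCm38 (mm10) annotation. Counting ignored the strand, so antisense transcripts cannot be told apart from the genes. The 92 spike-ins had 0 counts and were left out. Symbols came from GENCODE (40254 of 41388 genes).

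Counts were analysed in R 4.3.3 with edgeR 4.0.16 (filterByExpr, TMM, glmQLFit, glmQLFTest) in 1 fit to all libraries, in which the line was the sole factor. P values were adjusted over 13904 genes per contrast by Benjamini-Hochberg, and genes were called at an adjusted p under 0.05. Intervals are 95%. Correlations used log2 CPM with a prior count of 2. RPKM divides CPM by exonic length. The p values measure the spread between passages of 1 line. The fit was also run on simulated counts, in which chosen genes changed by known folds in E7.2 alone. These counts held no libraries that stood apart, so they do not show how the fit handles such libraries.

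The 4 genes and the pathway lists were chosen with earlier results of these data known. Other genes named are the closest paralogs, list genes and neighbours within 1 Mb that passed in a clone, the closest tested neighbours and the 3 genes most correlated with each of the 4. Some genes of these lists are not reported here by name. Alternatives were DESeq2 size factors, no filter, DESeq2 1.42.0's Wald test, a replicate block, a 2 Mb window, each library left out in turn and, added after seeing the data, both replicate 3 libraries of E6.2 and E7.2 left out. Sequences were taken from RefSeq promoters, and 4 of 4 genes matched.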

Additional observations from a re-analysis of the deposited data

Results flagged for a closer look

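For *Foxp1* and for *Clasp2* and *Sos2*, the list genes called in a clone against parental cells, 4 differences between clones passed a test of the difference itself. None of the 12 such tests of *Tmtc1, Robo1, Scn11a* and *Parp8* did, and the other list genes that passed between clones are given with their lists. *Foxp1* was lower in E7 than in E6 clones by a log2 of -1.09 (SE 0.14, adjusted p = 0.000609, edgeR), and all 6 E7 libraries were below all 6 E6 libraries. *Sos2* was lower in E7 than in E6 clones by -0.49 (SE 0.11, adjusted p = 0.0148), again without overlap. *Clasp2* was higher in E7 than in E6 clones by 0.45 (SE 0.09, adjusted p = 0.00854), with overlapping libraries, and higher in E6.2 than in E6.1 by 0.81 (SE 0.12, adjusted p = 0.00252), without overlap. Its mean was 76.7 CPM in E6.1, against 134 in E6.2, 137 in E7.1, 139 in E7.2 and 162 in parental cells. The p values between E7 and E6 clones cover the spread between libraries of a line and not that between clones of the same exon. Groups of 3 libraries were not tested for outlying values.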

How the results depend on the processing

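The 4 genes were above parental cells under every setting run, including each fit without 1 library. That difference chose the genes, so its persistence is a description and no test. Deviations from the line means had a mean r of 0.053 between same-numbered libraries of different lines and -0.025 between differently numbered ones. Same-numbered pairs ranged from -0.124 to 0.426, over 0.1 in 11 of 30 pairs. The highest was E6.2 replicate 3 with E7.2 replicate 3. Whether libraries of the same number were handled together was not tested. With a replicate block, *Robo1* between E7 and E6 clones turned from 0.01 to -0.012, no call on the 4 genes changed, and the genes called were 40 against 45 in E6.1, 163 against 169 in E7.1, 135 against 163 in E6.2 and 39 against 41 in E7.2, 1402 against 1677 between E7 and E6, 173 in both fits between E6.2 and E6.1 and 94 against 82 between E7.2 and E7.1. With no filter on low counts, *Tmtc1* passed between E7 and E6 (0.78, adjusted p = 0.0233) and between E7.2 and E7.1 (1.59, adjusted p = 0.00592), and 74 genes in E6.1, 343 in E7.1, 265 between E6.2 and E6.1 and 145 between E7.2 and E7.1 were called, with 1 list gene in E6.2 and 4 in E7.1.

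With DESeq2's Wald test, *Tmtc1* passed between E7 and E6 (0.77, adjusted p = 0.0240) and between E7.2 and E7.1 (1.60, adjusted p = 0.00241). It called 1157 genes in E7.1, 398 in E6.2, 254 in E7.2 and 155 in E6.1, 2684 between E7 and E6, 448 between E6.2 and E6.1 and 287 between E7.2 and E7.1, with 10 list genes in E7.1, 3 in E6.2 and 1 in E7.2, and 1 neighbour in E6.2 (*3010003L21Rik*) and in E7.1 (*Amn1*). A 2 Mb window added 1 neighbour in E7.1 (*Sec22c*). Without both replicate 3 libraries, *Tmtc1* passed between E6.2 and E6.1 (0.91, adjusted p = 0.0182) and *Robo1* between E7.2 and E7.1 (1.88, adjusted p = 0.0347), while E7 minus E6 reversed to -0.06 for *Robo1* and -0.16 for *Scn11a*. *Tmtc1* and *Parp8* between E7 and E6 were then 0.35 and -0.20. Genes called were 2166 in E7.1, 323 in E6.2, 219 in E7.2 and 132 in E6.1, 4734 between E7 and E6 and 484 between E6.2 and E6.1, with 15 list genes and 5 neighbours in E7.1, 2 list genes in E6.2, 2 list genes and 1 neighbour in E6.1 and 1 of each in E7.2.

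Without single libraries, *Tmtc1* ranged from 0.38 to 0.91 (adjusted p 0.0439 to 0.144) between E7 and E6, 0.68 to 0.95 (0.0202 to 0.585) between E6.2 and E6.1 and 0.79 to 1.88 (0.0337 to 0.293) between E7.2 and E7.1. It passed between exons without E7.2 replicate 1, between exon 6 clones without E7.2 replicate 3, and between exon 7 clones without E7.2 replicate 1 or 2 (1.86, adjusted p = 0.0491). Against parental cells *Robo1* ranged from 5.67 (without parental replicate 1) to 6.97 (without parental replicate 2) in E6.1. In E7.1 it ranged from 4.56 to 5.85, without the same libraries. Between E7.2 and E7.1 it ranged from 1.12 to 1.88 (adjusted p 0.167 to 0.880). Between E7 and E6, *Robo1* ranged from -0.27 (without E6.2 replicate 3) to 0.32, below 0 in 6 of 15 fits, *Scn11a* from -0.13 (without E7.1 replicate 1) to 0.64 and *Parp8* from -0.15 to 0.0050 (without E6.2 replicate 1). Genes called ranged from 30 to 1011 in E7.1, 83 to 228 in E6.2, 28 to 69 in E6.1, 14 to 191 in E7.2, 399 to 3847 between E7 and E6, 105 to 299 between E6.2 and E6.1 and 46 to 131 between E7.2 and E7.1, and the highest counts came without replicate 3 of E6.2 or of E7.2. List genes called ranged from 0 to 2 in E6.2 and 0 to 10 in E7.1, and neighbours from 0 to 1 in E7.1 and E7.2, with the highest of each without E6.2 replicate 3. The cause of these changes was not tested. Depth limits the parental levels of *Robo1* and *Scn11a*, which rest on 3 and 14 counts, and DESeq2's size factors kept all calls of the 4 genes on the same side of the threshold.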
